A study of Mus musculus with 4 samples.

Results

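The mitochondrial respiratory chain genes described here encode subunits and assembly factors of complexes I to V of oxidative phosphorylation, and they were examined for Zeb1 binding in mouse embryonic stem cells (mESC). They were chosen by gene symbol alone: Nduf genes, Sdha to Sdhd, Uqcr genes, Cox genes numbered 4 to 8 and Atp5 genes, with pseudogenes dropped. By this rule 63 of the 17435 Zeb1 peaks of the deposited list, annotated to 49 of its 12271 genes, were members. The data are chromatin immunoprecipitation followed by sequencing (ChIP-Seq) with an antibody against Zeb1, from 3 Zeb1 ChIP libraries and 1 input library. All were made from D3 cells, an established mESC line, in GS, the naive culture condition, in which a medium free of serum is supplemented with the MEK inhibitor PD0325901 at 1 μM, the GSK-3 inhibitor CHIR99021 at 3 μM and LIF at 20 ng per mL. The list holds 1 pooled mean per peak for treatment reads, input reads and enrichment over input, a ratio corrected for mapped reads. The spread between libraries is therefore unknown, no SD stands beside a value, and differences between peaks were not tested. Chromatin came from many cells at once, so binding in more cells and stronger binding per cell cannot be told apart. Cell type markers could not be examined, since a peak list holds no expression.

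The respiratory chain sits in the inner mitochondrial membrane. Complexes I and II pass electrons from NADH and succinate to ubiquinone, complex III hands them to cytochrome c, complex IV gives them to oxygen, and complex V makes ATP from the proton gradient that complexes I, III and IV build. All nuclear subunits are imported from the cytosol, and the factors NRF1, GABPA (also called NRF2) and YY1 are known activators of many of their genes; Zeb1 is a zinc finger repressor that recognises E-boxes with the core CACCTG. The subunits encoded in the mitochondrial genome were not analysed here.

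Promoters of respiratory chain genes with a Zeb1 peak are shown first, because 45 of the 63 peaks of the family (71.4%) were promoter peaks, beside 10697 of all 17435 peaks (61.4%). A promoter peak is a peak whose centre lies less than 5 kb from the transcription start site (TSS). The first set holds the bases before the TSS (RefSeq, GRCm38, at most 200 bases and ended where a neighbouring transcript begins) of 5 of the 8 genes with a promoter peak and the NRF1 core GCGCATGC, on either strand, in the promoter window. The NRF1 match is in capitals, and matches that overlap on both strands are marked together.
Ndufa8, chr2:36049339-36049472, minus strand: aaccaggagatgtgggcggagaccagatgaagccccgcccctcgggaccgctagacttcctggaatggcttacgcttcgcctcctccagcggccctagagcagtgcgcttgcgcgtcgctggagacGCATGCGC
Ndufa11, chr17:56717700-56717761, plus strand: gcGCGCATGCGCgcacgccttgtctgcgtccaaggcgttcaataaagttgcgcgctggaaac
Ndufaf4, chr4:24897883-24898082, plus strand: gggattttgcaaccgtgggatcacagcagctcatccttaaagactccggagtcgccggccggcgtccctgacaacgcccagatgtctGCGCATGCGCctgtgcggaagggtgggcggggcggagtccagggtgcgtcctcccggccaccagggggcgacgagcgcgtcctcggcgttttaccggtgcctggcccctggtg
Cox6a1, chr5:115348959-115349158, minus strand: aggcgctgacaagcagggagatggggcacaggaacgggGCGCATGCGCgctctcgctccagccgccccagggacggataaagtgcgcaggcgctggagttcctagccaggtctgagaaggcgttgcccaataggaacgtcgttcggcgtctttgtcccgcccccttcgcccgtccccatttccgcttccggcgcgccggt
Sdhb, chr4:140961071-140961270, plus strand: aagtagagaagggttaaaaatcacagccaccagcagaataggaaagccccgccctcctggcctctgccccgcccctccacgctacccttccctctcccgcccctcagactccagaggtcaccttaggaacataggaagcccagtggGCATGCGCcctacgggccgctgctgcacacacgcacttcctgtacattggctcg
In Ndufa8 the match ended 1 base before the TSS, in Sdhb 47 bases before it, and in Cox6a1 the farther of both overlapping matches began 162 bases before it. The Ndufa8 and Ndufa11 stretches are the whole interval to the start of a divergent neighbour, Morn5 and Vmac. A match is a string of letters and not a measured binding site.

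The next sequences show a Zeb1 E-box before the TSS of Uqcrc1, in capitals on the opposite strand as CAGGTG, and the 51 bases between the divergent starts of Sdhd and Timm8b, in which none of the motifs searched occurred.
Uqcrc1, chr9:108936448-108936647, plus strand: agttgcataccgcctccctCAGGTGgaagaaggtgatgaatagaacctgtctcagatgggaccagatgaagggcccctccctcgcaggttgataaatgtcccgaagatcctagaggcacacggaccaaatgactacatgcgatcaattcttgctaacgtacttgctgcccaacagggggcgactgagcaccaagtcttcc
Sdhd, chr9:50603850-50603900, minus strand: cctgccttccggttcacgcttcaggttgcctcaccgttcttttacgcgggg
The Uqcrc1 E-box began 181 bases before the TSS, while the centre of the Uqcrc1 peak lay 352 bp downstream of it. The 200 bases at that centre held no CACCTG. Both stretches lay under Zeb1 peaks, with enrichment of 4.96 at Uqcrc1 and 4.56 at Sdhd, both below the family's lower quartile of 5.86.

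The last set gives 30 bases around CACCTG where it fell within the 200 bases at the centre of a promoter peak. The E-box is in capitals, read on the strand that spells CACCTG.
Ndufa8, chr2:36049255-36049284, minus strand: cacggccgagggCACCTGgtcagggtcgcg
Ndufab1, chr7:122101640-122101669, plus strand: gtcaccgcaagtCACCTGcgcgagcgccaa
Ndufs4, chr13:114387642-114387671, minus strand: ccttccgcttgtCACCTGcttgccccattc
Sdhb, chr4:140961462-140961491, minus strand: ggctcccgggctCACCTGcaggccgactct
Uqcrfs1, chr13:30545112-30545141, minus strand: ccgcctcggagcCACCTGttctggatgtga
At Uqcrfs1 and Sdhb the window lay 24 bp from the peak centre, in coding exon 1 of each gene. At Ndufab1 and Ndufs4 it lay in intron 1, and at Ndufa8 in the untranslated part of exon 1. Enrichment at these 5 peaks ran from 3.95 at Ndufs4 to 10.6 at Uqcrfs1.

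Most respiratory chain genes in the list were bound at their own start. Of the 49 genes, 44 had a promoter peak, with 45 promoter peaks among them, and 18 peaks lay beyond 5 kb. Over the whole list 9972 of 12271 genes (81.3%) had a promoter peak. Because a list of peaks holds no gene without one, all protein-coding genes of the reference were also examined by position, whatever gene the list named. Of 98 respiratory chain genes with a curated TSS, 59 had a peak centre less than 5 kb from it, or 60.2% (95% Wilson interval 50.3 to 69.3). The same held for 10815 of 21000 protein-coding genes, or 51.5%, a share just within that interval. The TSS itself lay under a peak in 57 of the 98 genes (58.2%, 48.3 to 67.4), beside 47.8% of all genes, a share just below the interval. The background was also just below the interval with limits of 1 kb (56.1%, 46.3 to 65.5, beside 45.9%) and 10 kb (66.3%, 56.5 to 74.9, beside 55.6%) and with enrichment of at least 5 (53.1%, 43.3 to 62.6, beside 42.7%). The family's share was thus above that of all genes in each of these settings, by a margin about as wide as the counting error, and the difference was not tested.

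**Figure D1:**
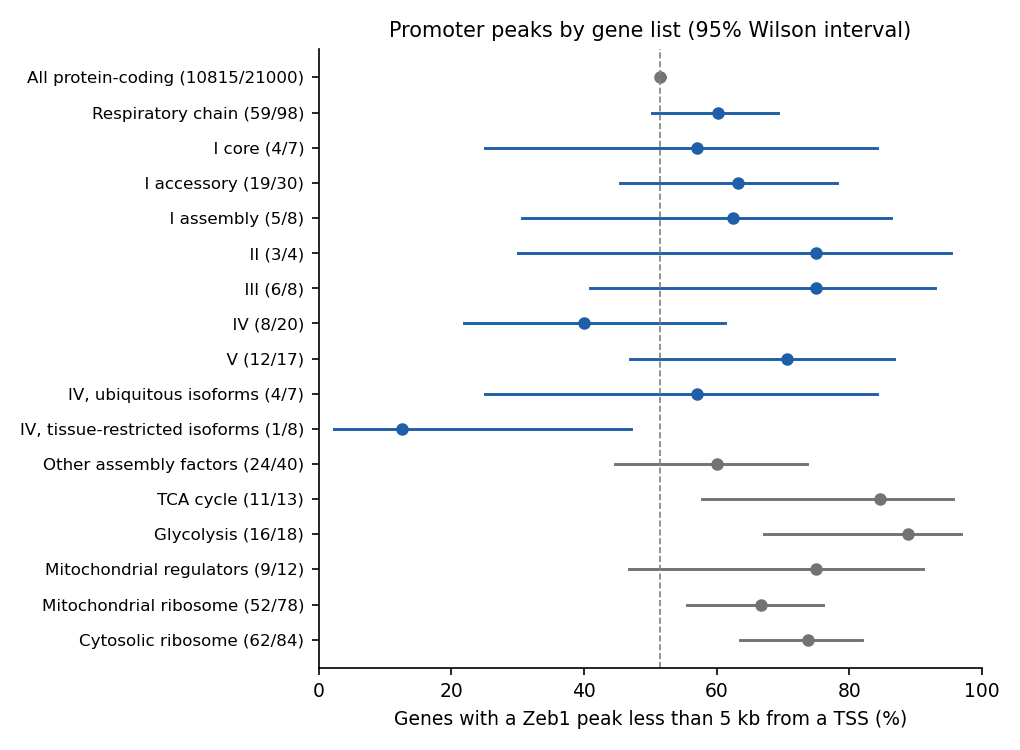
Share of genes with a Zeb1 peak centre less than 5 kb from a TSS (horizontal axis, percent) in each gene list, with the number of genes in brackets; points are shares, lines are 95% Wilson intervals, and the dashed line is the share of all protein-coding genes (51.5%). Within the respiratory chain (blue) complex IV and its tissue-restricted isoforms lie lowest, at 40.0% and 12.5%, and the glycolysis list (grey) is at 88.9%.

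Complex I takes electrons from NADH. Of its 7 core subunits encoded in the nucleus, which include the carriers of the flavin and the iron-sulfur clusters, 4 had a promoter peak. The highest enrichment was 8.37 at Ndufv1, the NADH-binding flavoprotein, with 40.7 treatment and 10.4 input reads on Chr. 19 from 4011901 to 4013200, centred in intron 1 of the gene. Ndufv2 had the most treatment reads among the core peaks annotated to their own gene, 41.6, with enrichment of 6.66. The lowest was 4.5 at Ndufs1, the largest iron-sulfur subunit, with 38.5 treatment and 16.5 input reads; that peak was annotated to Eef1b2, a translation elongation factor whose start lies 9 bp away on the opposite strand. Ndufs3, Ndufs7 and Ndufs8 had no promoter peak. The nearest peak centre was 13054 bp from Ndufs3, 11101 bp from Ndufs7 and 5774 bp from Ndufs8.

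The accessory subunits surround this core, and 19 of 30 had a promoter peak, with a median best enrichment of 7.1. Ndufb6 stood highest at 11.7, with 58 treatment and 11 input reads on Chr. 4 from 40278501 to 40280000, centred in exon 1. Ndufc2 followed at 10.2. Ndufb2 had the lowest enrichment of all promoter peaks of the family, 2.7, with 40 treatment and 32.5 input reads on Chr. 6 from 39591801 to 39593350; only 2.96% of all peaks in the list were lower. Its treatment reads were below the median of the accessory subunits, 48.5, and its input reads were above the family's upper quartile of 20.2. Ndufb7 had the most treatment reads among accessory genes bound under their own name, 69 with 19 input reads and enrichment of 8.47. The peak over the Ndufa13 start, annotated to the testis kinase gene Tssk6 on the opposite strand, had more, 161 with 46.7 input reads and enrichment of 7.14. The 11 accessory genes without a promoter peak were Ndufa1, Ndufa2, Ndufa3, Ndufa5, Ndufa6, Ndufa9, Ndufb3, Ndufb5, Ndufb11, Ndufs5 and Ndufv3. Their nearest peak centres lay between 7990 bp (Ndufv3) and 191894 bp (Ndufb11) away.

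Among the 8 Ndufaf assembly factors, which help build complex I and are not part of it, 5 had a promoter peak. Ndufaf2 had 53.9 treatment reads and enrichment of 7.99, and Ndufaf4 had the lowest enrichment, 6.54 with 45.2 treatment reads. The highest value, 8.94 with 91 treatment reads, was at the broad peak over the Ndufaf3 start, on Chr. 9 from 108566101 to 108572250 and annotated to Mir425, a microRNA gene. Ndufaf1, Ndufaf5 and Ndufaf7 had no promoter peak, with nearest peak centres at 12491, 104046 and 20510 bp.

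Complex II oxidises succinate and belongs to the citric acid cycle as well, and 3 of its 4 genes had a promoter peak. At Sdhb, the iron-sulfur subunit, enrichment was 8.16 with 55.1 treatment reads, the most in this complex. At Sdha, the flavoprotein, it was 7.58 with 48 treatment reads. At Sdhd, a membrane anchor, the peak was annotated to Timm8b and had 42.4 treatment reads and enrichment of 4.56. Sdhc, the other anchor, had its nearest peak centre 45372 bp away.

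Complex III had the highest median best enrichment of the 5 complexes, 10.1 over 6 of 8 genes, beside 6.92 over all protein-coding genes with a promoter peak. Uqcrh, the hinge protein, was highest at 14.5, with 123 treatment and 17.9 input reads at a peak annotated to the divergent gene Lrrc41, whose start is 199 bp away. Uqcrc2, a core protein, had enrichment of 11.5 with 68.2 treatment and 12.6 input reads, 11 bp from the TSS on Chr. 7 from 120634301 to 120636100. Uqcrfs1, the Rieske iron-sulfur protein, had 10.6. The lowest were Uqcrq at 5.55 and Uqcrc1, the partner of Uqcrc2, at 4.96 with 58.3 treatment and 24.9 input reads. The peak of Uqcr11, at 9.53, was centred 4854 bp from the TSS within an intron of Tcf3, just inside the limit, and did not cover the TSS. Uqcr10 and Uqcrb had nearest peak centres 32231 and 27800 bp away. With 6 genes, the 4 highest were at 9.53 to 14.5 and the other 2 at or below 5.55.

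Complex IV, cytochrome c oxidase, had the smallest share, 8 of 20 genes (40.0%, 95% Wilson interval 21.9 to 61.3). Its list holds isoforms made mainly in heart, skeletal muscle, lung or testis beside their widely expressed partners. Of the 7 widely expressed isoforms with such a partner, Cox4i1, Cox6a1, Cox7a2 and Cox8a had a promoter peak, and Cox6b1, Cox7b and Ndufa4 did not. Cox4i1 had the most treatment reads of the complex among peaks at the TSS, 93.6 with 24 input reads and enrichment of 8.06, centred on the TSS itself on Chr. 8 from 120667151 to 120669300. Cox7a2 had 37 treatment and 9 input reads with enrichment of 7.95, and Cox8a 33.1 and 9 with 7.9. Cox6a1 had 55.9 and 22.4, and enrichment of 5.51, the lowest of the complex. The highest was 8.6 at Cox6c, which has no isoform in the list, with 48.2 treatment and 11 input reads. Cox5a and Cox5b, further subunits without such a partner, had 6.07 and 6.42.

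Of the 8 tissue-restricted isoforms, only Ndufa4l2, known as a gene induced in hypoxia, had a promoter peak, and its TSS lay between a pair of broad peaks and under neither. The first, of 5350 bp at -3564 bp, had 81.1 treatment reads and enrichment of 6.39, and the second, of 6450 bp at 3336 bp downstream in an exon of Shmt2, had 119 treatment reads and enrichment of 5.75. For Cox4i2, Cox6a2, Cox6b2, Cox7a1, Cox8b and Cox8c the nearest peak centre lay 6527 to 31956 bp away, and for Cox7b2 588345 bp, the farthest of the family. Without the tissue-restricted isoforms, 7 of 12 complex IV genes (58.3%) and 58 of 90 genes of the family (64.4%, 95% Wilson interval 54.2 to 73.6) had a promoter peak, beside the 51.5% of all protein-coding genes, from which no such isoforms were removed. Ndufa4, Cox7a2l, Cox7b and Cox7c had no peak centre nearer than 111395 bp, and Cox6b1 had its nearest at 8336 bp.

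Complex V, the ATP synthase, had promoter peaks at 12 of 17 genes, with a median best enrichment of 6.25. Atp5e, the epsilon subunit of the central stalk, was highest at 9.07 with 46.3 treatment and 11 input reads, 1 bp from the TSS on Chr. 2 from 174463151 to 174465050. Atp5d, the delta subunit of the same stalk, had the most treatment reads, 73.6, with enrichment of 5.84. The alpha subunit gene Atp5a1 was lowest at 5.13 with 41.1 treatment and 18 input reads, and the catalytic beta subunit gene Atp5b had 7.26 with 51.2 and 15.4. Atp5g1, Atp5g2 and Atp5g3 encode the same mature protein of the membrane ring, and of these only Atp5g3 had a promoter peak, with enrichment of 7 and 63.4 treatment reads. The nearest peak centres were 10481 bp from Atp5g1 and 21653 bp from Atp5g2. Atp5j2, Atp5k and Atp5pb were also without a promoter peak, at 24341, 27001 and 177137 bp.

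**Figure D2:**
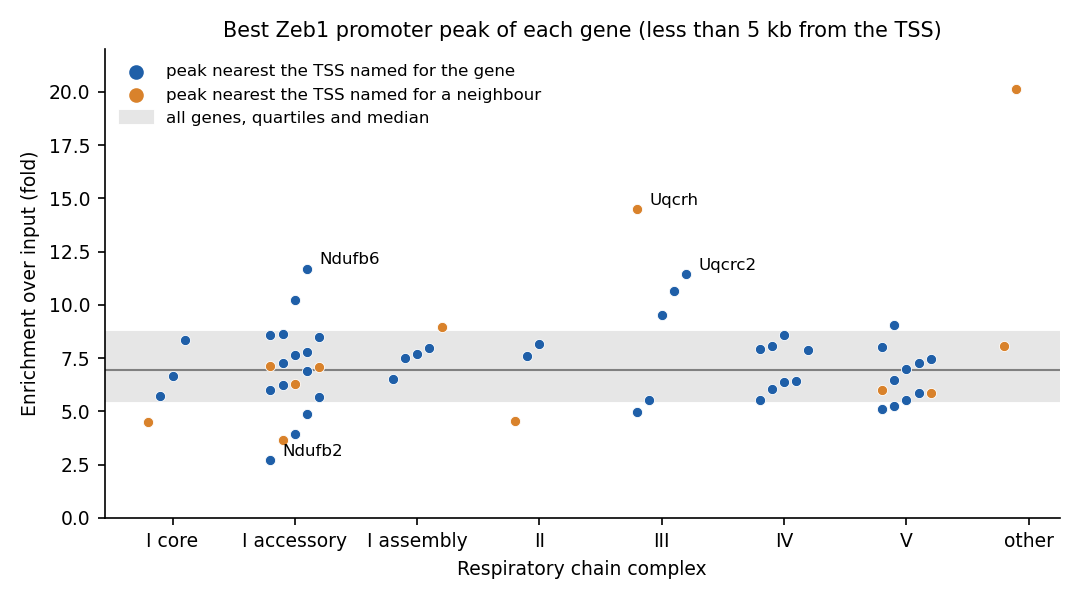
Enrichment over input (vertical axis, fold) of the best promoter peak of each respiratory chain gene with one, by complex; each point is a gene, orange where the peak nearest the TSS was annotated to a neighbour, and the grey band and line are the quartiles (5.5 and 8.75) and median (6.92) of all protein-coding genes. The group named other holds genes that meet the rule by an older symbol or lie outside the lists. Among the genes listed in a complex Uqcrh, at 14.5, lies highest and Ndufb2, at 2.7, lowest.

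Measured by the peaks annotated to its own genes, the family sat near the middle of the list. The median enrichment of the best promoter peak was 7.2 over the 44 genes (quartiles 5.81 and 8.08), beside 6.84 over the 9972 genes of the list (quartiles 5.43 and 8.66). The 95% interval of the family's median, 6.39 to 7.9, held the median of all. Of the 44 genes, 32 lay between the quartiles of all genes, 6 above and 6 below, and 25 lay above the median. No gene of the 44 exceeded 11.7, while the highest promoter peak of the list reached 76. Family promoter peaks were shorter, with a median of 1600 bp beside 1950 bp over all promoter peaks. They had 48.7 treatment reads at the median beside 52.6, and 14 input reads beside 17. Per kb of peak the order turned, with 30.7 treatment reads in the family and 26.8 over all promoter peaks. Their sequence had a median GC content of 53.4%, beside 56.8%, and 46 CpG per kb beside 50. Length, reads per kb, GC content and CpG density were not particular to the family, since promoter peaks of the mitochondrial ribosome had medians of 1600 bp, 33.2 treatment reads per kb, 53.1% GC and 45.8 CpG per kb, and those of the cytosolic ribosome 1750 bp, 29.5 reads, 54.3% and 50.3. The authors' annotation, which gives each peak 1 label, named a CpG island for 16 of the 45 (35.6%, 95% Wilson interval 23.2 to 50.2), beside 17.3% of all promoter peaks, 7.14% in the mitochondrial ribosome and 22.6% in the cytosolic ribosome. It gave this label to 0 of the 3749 promoter peaks centred from 1 kb upstream to 100 bp downstream of the TSS, so that the share also depends on position. Between 100 and 500 bp downstream it was 53.3% of 30 family peaks (36.1 to 69.8) and 30.2% of all. All 16 labelled family peaks were centred in an intron of their gene, and no family promoter peak centred in an exon had the label. The label share is therefore no measure of CpG density, which was lower in the family. Intron centres were not counted over all promoter peaks.

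Promoter peaks annotated to a respiratory chain gene lay close to its start. Of these 45 promoter peaks, 38 (84.4%, 95% Wilson interval 71.2 to 92.3) were centred at the TSS or less than 500 bp downstream of it, beside 56.2% of all promoter peaks. Another 4 were centred less than 500 bp upstream, and 42 of 45 (93.3%) lay within 1 kb, beside 85.0%. The median distance was 157 bp downstream for the family and 163 bp for all, so that the medians were close and the spread was not, with quartiles of 60 and 238 bp in the family and 0 and 381 bp over all. Of the mitochondrial ribosomal protein genes 61.9% and of the cytosolic ribosomal protein genes 67.9% of promoter peaks lay in the same interval downstream. The 3 peaks 500 bp or farther from the TSS were those of Ndufa4l2 and Uqcr11. Counted by position, with peaks annotated to a neighbour included, the share was smaller: the nearest peak was centred at the TSS or less than 500 bp downstream in 42 of 59 genes (71.2%, 95% Wilson interval 58.6 to 81.2), beside 56.6% of all protein-coding genes with a promoter peak. Of the 12 peaks annotated to a neighbour, 11 were centred upstream of the family gene. All 12 centres lay nearer to the neighbour's start, so that this side follows from how peaks were named. The same naming leaves such centres out of the 45 peaks above. Counted by position, upstream centres made up 27.1% in the family and 28.2% over all genes.

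**Figure D3:**
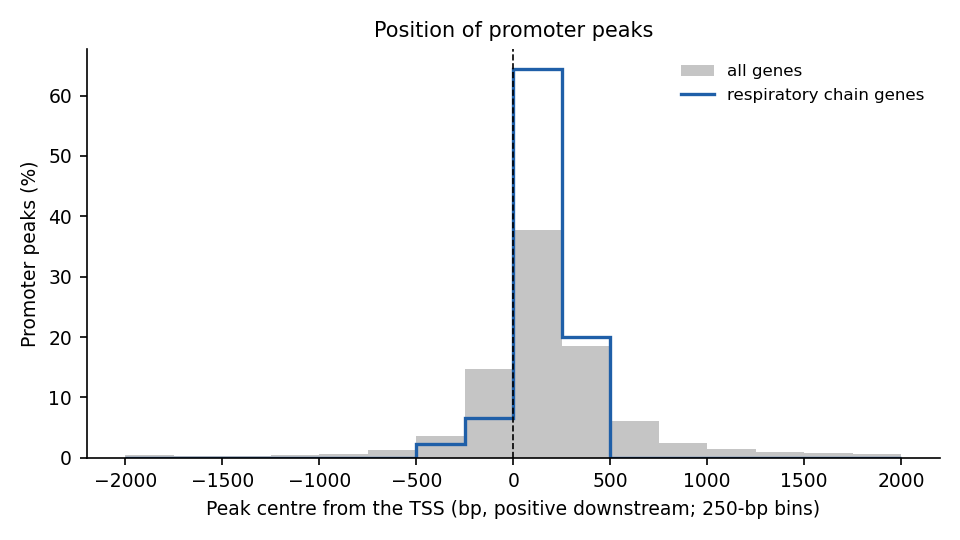
Position of promoter peak centres relative to the TSS (horizontal axis, bp, positive downstream, 250-bp bins from -2000 to 2000) as a share of promoter peaks (vertical axis, percent). Peaks annotated to respiratory chain genes (blue line, 45) gather just downstream of the TSS, and peaks of all genes (grey, 10697) spread farther to both sides. Peaks at family starts that were annotated to a neighbour are not in the blue line.

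Many respiratory chain promoters are shared with a second gene. A second start lay within 1 kb of the TSS in 36 of 98 genes (36.7%, 95% Wilson interval 27.9 to 46.6), beside 14.7% of all protein-coding genes. The mitochondrial ribosomal protein genes had 41% and the cytosolic ones 33.3%. With protein-coding second starts alone, the family had 34.7% and all protein-coding genes 10.2%. The mitochondrial ribosomal list then had 37.2% and the cytosolic one 14.3%. Over all protein-coding genes, those with a second start of any kind had a promoter peak in 72.6% of cases (2236 of 3080) and those without in 47.9% (8579 of 17920). Within the family these shares were 58.3% (21 of 36, 95% Wilson interval 42.2 to 72.9) and 61.3% (38 of 62, 48.8 to 72.4). The first interval held the 72.6% of all genes, and the second began just above their 47.9%. The family intervals overlapped widely, and the difference was not tested.

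At shared promoters the peak was often annotated to the neighbour. Of the 59 genes with a promoter peak by position, the nearest peak carried the gene's own name in 47, including Atp5md, Atp5mpl and Ndufaf8 under older names that the rule does not take, and another gene's name in 12. In all 12 the TSS lay under that peak and a second start lay within 1 kb. The nearest second start was on the opposite strand in 11. Emc8 was the exception, with the start of Gm27021 55 bp away on the same strand. Atp5j shared its promoter with Gabpa, the gene of the activator named above, with starts 102 bp apart and enrichment of 5.87. Atp5h shared one with Kctd2 (6.01), Ndufb1 with Cpsf2 (7.1) and Ndufa11 with Vmac (6.27). Ndufa7, whose start lies 10 bp from that of Rps28, had the lowest of the 12, 3.65 with 31 treatment and 17 input reads. Emc8, a subunit of a complex of the endoplasmic reticulum that carried a Cox symbol before, lay under the Cox4i1 peak. Among the 39 genes without a promoter peak, 15 (38.5%) also had a second start within 1 kb.

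**Figure D4:**
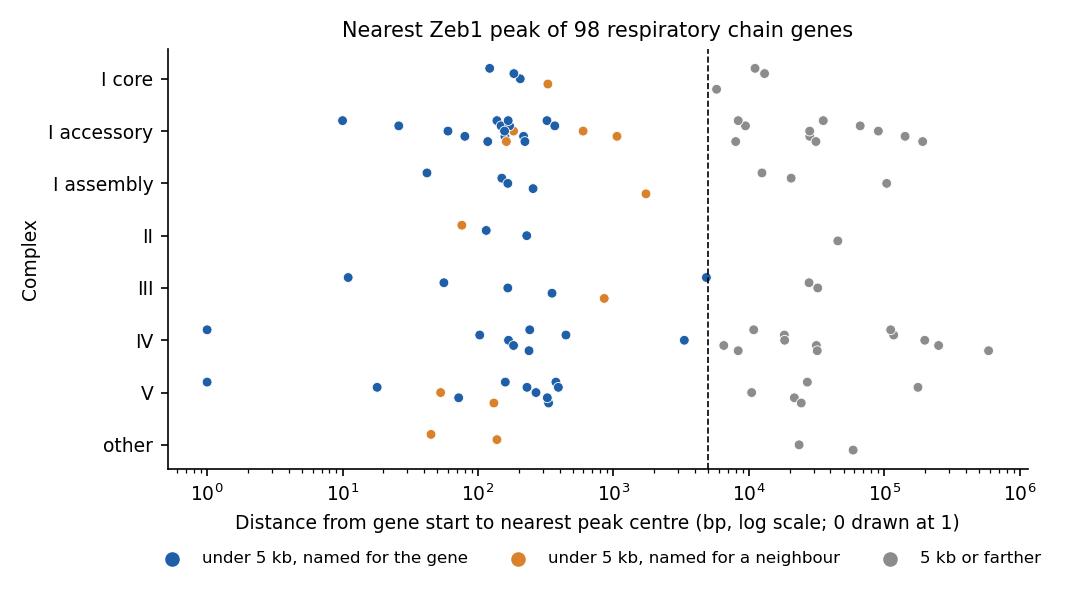
Distance from the TSS of each of the 98 respiratory chain genes to the nearest Zeb1 peak centre (horizontal axis, bp, log scale, 0 drawn at 1), by complex. Blue and orange points are genes with a promoter peak annotated to the gene or to a neighbour, grey points are the 39 genes without one, and the dashed line marks 5 kb; most points lie either below 500 bp or above 5 kb.

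For the 39 genes without a promoter peak the nearest peak centre lay 5774 to 588345 bp away, with a median of 28113 bp, and it lay beyond 10 kb in 33 (84.6%, 95% Wilson interval 70.3 to 92.8), beside 91.6% of all protein-coding genes without a promoter peak, a share within that interval. The other 6 were Ndufs8, Cox6b2, Ndufv3, Cox6b1, Ndufa6 and Ndufa2. All 3 family genes on the X chromosome, Cox7b, Ndufa1 and Ndufb11, were among the 39, at 142263 to 251600 bp. Over all protein-coding genes of the X chromosome 92 of 902 (10.2%) had a promoter peak. A gene without a peak is a gene at which no region passed the authors' limits, and weaker binding there was not measured.

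The promoter windows of 79 family genes were found in the RefSeq table, and 4 motifs were searched in their 300 bases on both strands. The Zeb1 core CACCTG was held by 15 (19.0%, 95% Wilson interval 11.9 to 29), beside 19.2% of all 16853 protein-coding promoters. The NRF1 core GCGCATGC was held by 12 (15.2%, 8.91 to 24.7), beside 3.73% of all protein-coding promoters and 5.21% of those with a peak. The YY1 motif AAGATGGCG was held by 8 (10.1%, 5.22 to 18.7), beside 2.02% and 2.83%. The Ets motif CCGGAAGT, the type bound by GABPA, was held by 5 (6.33%, 2.73 to 14), beside 5.45% and 7.7%. Zeb1 peaks stood at promoters with and without each motif. The Zeb1 core was in 7 of 47 family promoters with a peak (14.9%) and in 8 of 32 without (25%), and the NRF1 core in 8 (17.0%) and 4 (12.5%). Over all protein-coding promoters the Zeb1 core was in 19.3% with a peak and 19.0% without. Each share lay within the 95% Wilson interval of the matching family group, so the family split did not stand apart from the background. The NRF1 core was in 5.21% and 2.18% of all protein-coding promoters, each below the matching family interval. The genes with a promoter peak and the NRF1 core were Atp5l, Cox6a1, Ndufa8, Ndufa11, Ndufaf4, Sdhb, Uqcr11 and Uqcrc1, and Sdhb and Uqcrc1 held the Zeb1 core as well.

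**Figure D5:**
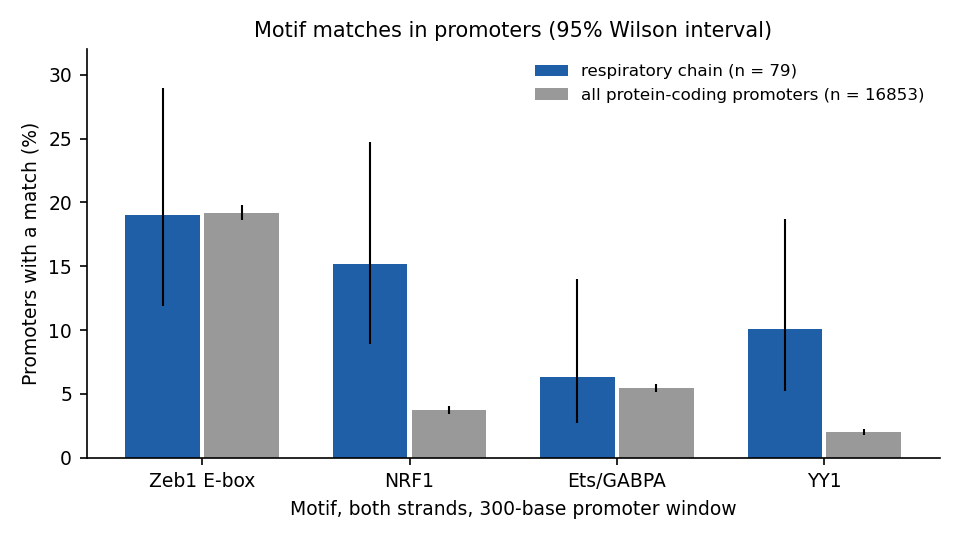
Share of promoters with a match to each motif (vertical axis, percent) in the 300-base window, for 79 respiratory chain promoters (blue) and all 16853 protein-coding promoters of the table (grey); bars are shares and lines 95% Wilson intervals. The Zeb1 E-box is close in both groups (19.0% and 19.2%), and NRF1 (15.2% and 3.73%) and YY1 (10.1% and 2.02%) lie apart.

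Within the peaks the share with an E-box was likewise close to the background. Within the 200 bases at the centre CACCTG was present in 7 of 45 family promoter peaks (15.6%, 95% Wilson interval 7.75 to 28.8), beside 17.2% of all promoter peaks. Over all 63 family peaks it was present in 13 (20.6%), beside 21.8% of the list. The NRF1 core, unlike in the promoter windows, was also near its background there, in 1 of the 45 promoter peak centres (2.22%, 0.393 to 11.6) beside 1.56%. Of the 7 with CACCTG, Uqcrfs1 had the highest enrichment, 10.6, and Ndufs4 the lowest, 3.95 with 23.5 treatment reads, the fewest of the family's promoter peaks. Ndufb6 and Uqcrc2, the promoter peaks of highest enrichment annotated to family genes, had no CACCTG in the centre and held it elsewhere in the peak.

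Of the 49 genes of the list 42 had exactly 1 peak and 7 had more, and 18 peaks lay beyond 5 kb. These distal peaks had a median enrichment of 4.95, beside 6 over all distal peaks. Cox7c had 6 peaks, all between genes, the nearest 111395 bp downstream and the farthest at -1144255 bp. All 6 were placed by the authors' annotation on LINE-1 elements, a family of retrotransposons. The share of LINE-1 elements over all distal peaks was not counted here. In 5 of the 6 the centre held CACCTG, beside 21.8% of all peaks of the list. Copies of a repeat have similar sequence, so these are not separate observations. Enrichment of the 6 peaks ran from 3.14 to 14.1, the highest with 31.8 treatment and 5 input reads at -217630 bp. The peak of Ndufa4, 198771 bp from the TSS, also lay on a LINE-1 element, with 95 treatment and 47 input reads and enrichment of 4.33.

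The other 11 distal peaks belonged to 7 genes. The second peak of Cox4i1, 17980 bp downstream, had the highest enrichment of all 63, 21.9, with 25.5 treatment and 3 input reads, so that it rested on few reads. Ndufb9 had distal peaks at 11765 and 70015 bp in introns of Mtss1, with enrichment of 8.25 and 3.2. Ndufb7 had a peak of 5100 bp in intron 1 of Tecr, 8792 bp from its TSS, with 93 treatment reads and enrichment of 5. Ndufa13 had 3 in Gatad2a, from -7117 to -15067 bp, with enrichment of 4.3 to 4.6. Atp5o had a peak at 78755 bp in an intron of Itsn1 (5.5) and another at -9895 bp on a SINE element (4.9), besides its promoter peak (8). Ndufa11 had a peak at 7213 bp (5.2) and Uqcrb a peak at 189625 bp with 76.6 treatment and 33.3 input reads (4.71). Cox7c, Ndufa4, Ndufa11, Ndufa13 and Uqcrb were in the list with distal peaks alone, though the starts of Ndufa11 and Ndufa13 lay under the peaks annotated to Vmac and Tssk6.

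Most lists of related genes had a share of genes with a promoter peak near or above the 60.2% of the respiratory chain. Among 40 other assembly factors of the chain 24 (60%) had a promoter peak, with a median best enrichment of 5.63, highest at Timmdc1 (11.6) and lowest at Cox18 (3.26). Of the cytochrome genes, Cyc1, which encodes cytochrome c1 of complex III, had one (9.37), and Cycs and Cyct, which encode cytochrome c, did not. The citric acid cycle had 11 of 13 genes (84.6%, 95% Wilson interval 57.8 to 95.7), highest at Idh3b (9.45) and lowest at Dld (4.25). Glycolysis had 16 of 18 (88.9%, 67.2 to 96.9), highest at Eno3 (9.4) and lowest at Eno2 (3.75). Of 12 regulators of mitochondrial genes 9 (75%) had a promoter peak, from 4.07 at Nrf1 to 9.96 at Tfb2m, the mitochondrial transcription factor, with a median of 8.4; Ppargc1a, Polrmt and Tfb1m had none. The mitochondrial ribosome had 52 of 78 genes (66.7%, 55.6 to 76.1), from 3.73 at Mrps18a to 14.4 at Mrpl20, and the cytosolic ribosome 62 of 84 (73.8%, 63.5 to 82), from 3.11 at Rpl32 to 16.6 at Rps16. Median best enrichment was 6.9 and 6.48 in these ribosomal lists, 6.72 in the citric acid cycle and 6.07 in glycolysis, beside 7.14 in the respiratory chain by position and 6.92 over all genes.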

How the data were processed

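Zeb1 ChIP-Seq peaks came from 1 deposited list that pools 3 Zeb1 ChIP libraries against 1 input library. Reads had been trimmed (Reaper), aligned to mm10 (STAR 2.4.2a) and freed of duplicates (Picard 1.136) by the authors; PeakRanger gave the peaks, those seen in at least 2 of the 3 libraries were merged, and HOMER 4.7 assigned genes. The deposited read columns are a signal, the authors' mean reads per peak, and the deposited enrichment is a ratio of treatment over input averaged by the authors. The list begins at 20 treatment reads and 2-fold enrichment, and its p-value is 0 throughout and was not used. Depth per library was not used here.

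Genes, second starts and promoter windows came from RefSeq on GRCm38, the same assembly as mm10, with 45756 curated transcripts. The deposited distance of 50 of the 63 family peaks was within 2 bp of that recomputed, and of all 63 within 100 bp, with positive values downstream, the opposite of the list's legend. Ndufb4b had no curated transcript. Some genes are counted and not reported here by name. Motifs were searched as exact letters on both strands (CACCTG, GCGCATGC, CCGGAAGT and AAGATGGCG), in 300-base windows (250 before to 50 after the start) and in 200 bases at peak centres. The NRF1 core can overlap itself on the opposite strand.

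The members and lists were chosen with earlier results of these data known. Values were given for the highest and lowest enrichment and most treatment reads of each complex, isoform pairs, genes with several or only distal peaks, genes without a promoter peak, and the extremes of each other list; other genes given values were named after these were seen. No test was made. Wilson intervals of shares and order-statistic intervals of medians cover counting error only, and genes and peaks are not replicates. The code was tested on simulated data. Alternatives changed distance limits, enrichment, gene assignment, windows and motif letters. Python 3.11.15, NumPy 2.4.6, pandas 2.3.3, SciPy 1.17.1 and pysam 0.24.0 were used.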

Additional observations from a re-analysis of the deposited data

How the results depend on the processing

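Of 37 alternatives, 12 of them chosen after seeing the data, 28 left a value within the 95% interval of the reported one or, for the number of genes, within 1.5 times of it. The number of genes with a promoter peak ran from 40 with enrichment of at least 5 to 59 by reference TSS, and the share of reference genes from 53.1% with enrichment of at least 5 to 66.3% with a limit of 10 kb; the same settings gave 42.7% and 55.6% of all protein-coding genes. The other 9 moved. The median enrichment of 7.2 became 3.32 as a ratio of the listed reads with 1 added to each, without the authors' correction for mapped reads. With the 200 bases at the centre of promoter peaks in place of the promoter window, the NRF1 and Ets motifs were each held by 2.22% and YY1 by 4.44%, beside 1.56%, 2.52% and 1.33% of all promoter peaks. This step changed the genes, the place and the length of the window at once. These were set apart in the 35 family genes with both a promoter window and an annotated promoter peak. NRF1 was held by 20.0% of promoter windows (7 genes, 95% Wilson interval 10.0 to 35.9). It was held by 5.71% of the 300 bases at the peak centre (2 genes, 1.58 to 18.6). In the 200 bases there it was held by 2.86% (1 gene, 0.506 to 14.5). Over all such genes the shares were 5.48%, 2.85% and 1.82%. The family intervals overlapped, and the parts of place and length were not tested. The Ets motif was held by 5.71%, 0% and 0%, and YY1 by 8.57%, 5.71% and 2.86%, from at most 3 genes each. CACCTG was in 82.5% of whole family peaks, which are longer than 200 bases, and the shorter ACCTG in 49.2% of centres, beside 82.1% and 43.4% over all peaks. Median treatment reads of 48.7 per peak were 30.7 per kb. Leaving out a library was not run, since the list holds pooled values, and no paired analysis was possible because there is no value per library. Peaks near 20 treatment reads rest on few reads, and binding below the authors' limits was not measured.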
